A study of Mus musculus with 19 samples.

Results

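The sites described here are cytidines (C) in genes annotated as small nuclear RNA (snRNA) in a table of RNA cleavage at C positions in mouse neural progenitor cells. A site was taken when the first gene the table lists for it carries the snRNA biotype, with no cutoff on any measured value. This gave 1347 sites in 161 genes, out of 118890 distinct C sites in the table. The sites hold 1342 distinct signals, since 10 sites have the read numbers of another snRNA site in every library.

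Small nuclear RNAs are the RNA parts of the spliceosome, the particle that removes introns. The 5′ end of U1 pairs with the 5′ splice site, U2 pairs with the branch site, and U12 takes the place of U2 in the rare class of minor introns. Most spliceosomal RNAs carry a cap at their 5′ end and have many 2′-O-methylated and pseudouridylated nucleotides, whereas 3-methylcytidine (m3C) is known chiefly from tRNA. METTL8, the enzyme removed in this study, makes m3C in mitochondrial tRNA.

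Cleavage was measured in 3 cKO and 4 WT libraries of cultured neural progenitor cells from mouse cerebral cortex of embryonic day 17.5. The cKO cells carry a conditional Mettl8 knockout and the WT cells do not. Both genotypes were grown on Matrigel with bFGF and EGF. The sources used here give neither the allele, the Cre line nor the part of Mettl8 that was removed. They also leave out whether each replicate came from its own culture or mouse, so the p-values set genotypes against a spread between libraries that may be technical. RNA-seq from 6 cKO and 6 WT samples of the same kind was used for the proteins that build and modify snRNAs.

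In hydrazine-aniline cleavage sequencing (HAC-seq), hydrazine attacks m3C and aniline cuts the chain there, so that a read from a cleaved molecule starts 1 nucleotide downstream of the C. The cleavage ratio is the number of such read starts as a percentage of all reads at the site, here called the coverage. The table lists a C only where each WT library had at least 2 read starts, so a C cleaved in cKO libraries alone would not be listed. A read start is counted whatever ended the fragment, and no library without hydrazine was analysed here. A ratio is therefore a level of read starts, and starts with and without the chemistry cannot be told apart.

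The whole table gives the setting for the values below. A C in the mitochondrial threonine tRNA mt-Tt had a ratio of 2.11, 1.70 and 2.51% in cKO libraries, against 93.7, 94.6, 94.7 and 94.7% in WT libraries. It fell by 92.3 percentage points in cKO cells (adjusted p = 7.16e-12, quasi-binomial test) and was the 1 site of 13240 tested that passed the adjusted threshold of 0.05. In RNA-seq, Mettl8 itself was counted at 59.2 to 80.5 CPM with a median of 74.8 in cKO samples, against 36.0 to 58.9 CPM with a median of 46.8 in WT samples. A count over the whole gene does not check the knockout when the removed part is not given. The 8 neural progenitor markers summed to 6588 to 10936 CPM in cKO samples, against 6961 to 11084 CPM in WT samples. Most of this sum was Fabp7, with means of 7460 CPM in cKO and 7810 CPM in WT samples, while Mki67 had 666 and 582 CPM. Neuron markers, without Map2, which was not counted, summed to 92.6 to 129 CPM in cKO samples against 87.4 to 176 CPM in WT samples. The 4 microglia markers summed to 2.98 to 7.74 CPM against 1.65 to 6.67 CPM, and the 4 of endothelium and fibroblasts to 0.776 to 3.15 CPM against 0.798 to 3.11 CPM. The 4 astrocyte markers summed to 332 to 1270 CPM in cKO samples, against 563 to 1165 CPM in WT samples, and the 5 oligodendrocyte lineage markers to 350 to 596 CPM against 381 to 603 CPM. Their part in the cleavage values was not tested.

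Sites in snRNA genes were read far more deeply than the others. The median coverage was 7100 reads per library over the snRNA sites, against 158 reads over the other sites. All 7 libraries had at least 50 reads at 1145 of the snRNA sites, in 84 genes. Of the 161 genes, 54 held 1 site and 37 held 10 or more.

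The table names 4 of the genes by a class, which are Rnu1b1 and Rnu1b2 (U1), Rnu2-10 (U2) and Rnu12 (U12). The other 157 have only Gm names and are given no class here. Placing 1341 of the sites in their RefSeq gene on build GRCm38.p6, with nucleotide 1 as the first annotated base, showed sets of genes with largely the same C positions. Genes with at least 10 sites and lengths within 5 nucleotides were joined when at least 80% of the C nucleotides of the one with fewer were also listed in the other, and chains of such pairs form a pattern. Rnu1b1, Rnu1b2 and 14 Gm genes of 164 to 166 nucleotides form the U1 pattern, with 503 sites at 47 distinct nucleotides. Rnu2-10 and 12 Gm genes of 184 to 191 nucleotides form the U2 pattern, with 393 sites at 42 distinct nucleotides. A set of 3 genes of 116 nucleotides held 46 sites, and a pair of genes of 141 nucleotides held 53. The name of a pattern says that most positions match and not that the Gm genes make that RNA.

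Copies of a gene mostly carried the same reads. Rnu2-10 (ENSMUSG00000065944) lies on the plus strand of chromosome 11 from 101658238 to 101658424, and its median coverage was 104876 reads, next to 104864 reads for Gm23971 and 104861 for Gm24950, which lie nearby on the same chromosome. Sites at the same nucleotide whose coverage differed by at most 10% and whose read starts differed by at most 10% or 3 reads in every library were joined into sets of near copies, which left 875 sets of the 1347 sites. How the authors assigned reads that match several copies is not given in the sources used here, so a value below belongs to a set of copies and not to 1 gene. The choice of copy still moves the ratio. At nucleotide 33 Gm22317 and Gm24305 had nearly the same read starts, 2050 and 2049 in cKO replicate 1 and 2820 in both in WT replicate 1. Their ratios were 5.79% and 14.7% as cKO means, against 5.77% and 15.9% as WT means, because the coverage of Gm24305 was lower.

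The level of the ratio was highest at the 5′ end of the RNA and lower further inside in both genotypes. At 15 sites at or before the annotated first nucleotide, in 8 sets of near copies, the median ratio was 98.1% in cKO libraries and 98.6% in WT libraries (medians of the group means, sites with at least 50 reads in each library). Read starts of a C at nucleotide 0 fall on the first nucleotide of the annotated RNA, so these sites count fragments that begin at its 5′ end. Over nucleotides 1 to 15 the median was 16.9% in cKO and 16.2% in WT libraries at 160 sites, and over nucleotides 16 to 30 it was 6.23% and 6.39% at 144 sites. It was 0.790% in cKO and 0.761% in WT libraries over nucleotides 31 to 60, at 205 sites. Further on it did not fall evenly, with 1.11% in cKO and 1.12% in WT libraries over nucleotides 61 to 90 (290 sites), 0.828% and 0.797% over nucleotides 91 to 130 (181 sites), and 0.181% and 0.152% from nucleotide 131 on (150 sites). The medians of the genotypes lay within 1 percentage point of each other in each of these parts. From nucleotide 31 on the medians were themselves at most 1.12%, so such a gap says little there. From nucleotide 131 on, 143 of the 150 sites had a higher mean in cKO. The medians ranged over more than 2 orders of magnitude, but the parts hold different genes and do not follow 1 RNA.

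**Figure D1:**
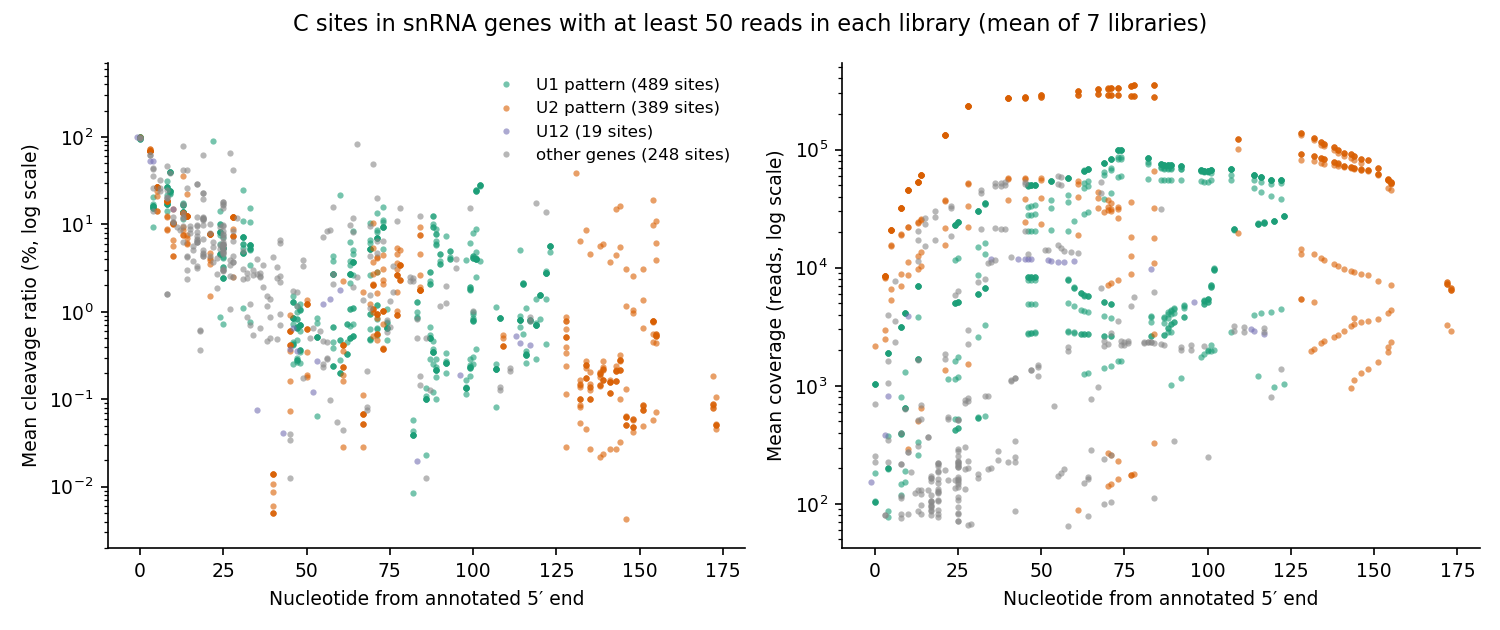
Mean cleavage ratio (left, percent, log scale) and mean coverage (right, reads, log scale) of 1145 C sites in snRNA genes with at least 50 reads in each library, by nucleotide from the annotated 5′ end. Each point is 1 site, averaged over 7 libraries. Ratios lie at 93.6 to 99.4% at or before the first nucleotide and the lowest is 0.00430% at nucleotide 146.

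Coverage ran the other way over the first part of the RNA. At Rnu2-10 the lowest and highest library had 6847 and 10104 reads at nucleotide 3, 17001 and 25024 at nucleotide 5, 180180 and 310606 at nucleotide 28, and 257474 and 484121 at nucleotide 84. The read starts did not rise in step. They numbered 5081, 4822 and 6354 in cKO libraries and 5652, 5754, 7061 and 6310 in WT libraries at nucleotide 3. At nucleotide 84 they numbered 5013, 4693 and 6559 in cKO libraries and 8247, 6924, 6116 and 6302 in WT libraries. Similar numbers of read starts thus stood over coverage that differed more than 30-fold, and the ratio was 71.4% in cKO and 68.3% in WT libraries at nucleotide 3, against 1.83% and 1.75% at nucleotide 84.

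Among the 381 snRNA sites with a mean ratio of at least 5%, the set on which genotype was tested, 35 exceeded 50%. Of these, 15 lay at or before the first nucleotide, 16 at nucleotides 1 to 15 and 4 further inside. The 4 were nucleotide 22 of Gm22042 at 89.2% in cKO and 90.7% in WT libraries, nucleotide 65 of Gm22984 at 81.8% and 82.2%, nucleotide 27 of Gm25052 at 65.7% and 65.6%, and nucleotide 19 of Gm22286 at 62.0% and 61.1%. Of all 13240 tested sites, 206 exceeded 50%.

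The genotype test gave no snRNA site past the adjusted threshold. With the quasi-binomial test and Benjamini-Hochberg adjustment over all 13240 sites, 0 of the 381 snRNA sites were called and the smallest adjusted p among them was 0.518, beside 0.00755% of all sites called. At an unadjusted p under 0.05, 59 snRNA sites (15.5%) were higher in cKO libraries, against 6.62% of all sites tested, and 9 (2.36%) were lower, against 2.02%. The 59 sites were 23 of the 225 sets of near copies tested (10.2%), and the 9 were 4 sets (1.78%). The count was repeated among deeply read sites, and the part of depth in it was not tested. Among sites with a mean coverage of at least 1000 reads, the unadjusted share higher in cKO was 21.4% of 248 snRNA sites and 20.4% of 913 other sites, against 20.6% over both. Counted as sets of near copies, the snRNA share was 16.0% (19 of 119 sets). Depth was not matched above this minimum, since the median coverage was 12837 reads at those snRNA sites and 2112 reads at the others. The share lower in cKO was 2.42% of those snRNA sites and 12.6% of the other sites, against 10.4% over both, and the difference was not tested.

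The unadjusted count depended on the test and on the libraries included. Unadjusted shares over all sites tested are given only for the fit above. The counts below therefore do not show whether the whole table moved with the snRNA sites. limma on arcsine-transformed ratios gave 4 higher and 3 lower, and the p-values of the authors' deposited table gave 5 higher and 2 lower. Without cKO replicate 1 the quasi-binomial test gave 32 higher and 16 lower, without WT replicate 3 it gave 49 and 34, without WT replicate 1 it gave 42 and 16, and without WT replicate 4 it gave 60 and 5. The counts without cKO replicate 2 were 60 and 4. In that fit 16 of all 14219 sites tested were called higher in cKO and 6 lower, at an adjusted p under 0.05 (quasi-binomial test). Of the 386 snRNA sites in it 7 were called, all higher in cKO and belonging to 3 sets of near copies. These were nucleotide 13 of Gm22317, Gm22634, Gm23804, Gm25679, Gm26444 and Gm23240 and nucleotide 31 of Gm22513.

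The 381 ratios averaged 20.5, 19.4 and 20.2% in the cKO libraries, against 18.8, 19.5, 19.9 and 20.1% in the WT libraries. These averages include the 15 sites at or before the first nucleotide, with mean ratios of 93.6 to 99.4%, which raise their level. WT replicate 1 was the lowest and cKO replicate 1 the highest, and the groups overlapped. The mean was 20.0 ± 0.555% in cKO and 19.6 ± 0.547% in WT libraries (SD, n = 3 and 4), a difference of 0.464 percentage points, smaller than the SD of either group. The median difference of the 381 sites was 0.211 points and 57.2% of them were higher in cKO, beside 0.57 points and 61.4% over all sites tested. The 12859 tested sites outside snRNA genes averaged 10.6, 9.28 and 9.63% in cKO libraries, against 8.82, 9.19, 9.23 and 9.49% in WT libraries, with the same libraries at the ends. WT replicate 1 also had the highest coverage scale, a size factor of 1.40 from the median of ratios, and cKO replicates 1 and 2 the lowest, 0.774 and 0.788. The part of depth in these ratios was not tested. Of the 381 sites, 197 differed by less than 1 point and 4 by more than 5 points.

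**Figure D2:**
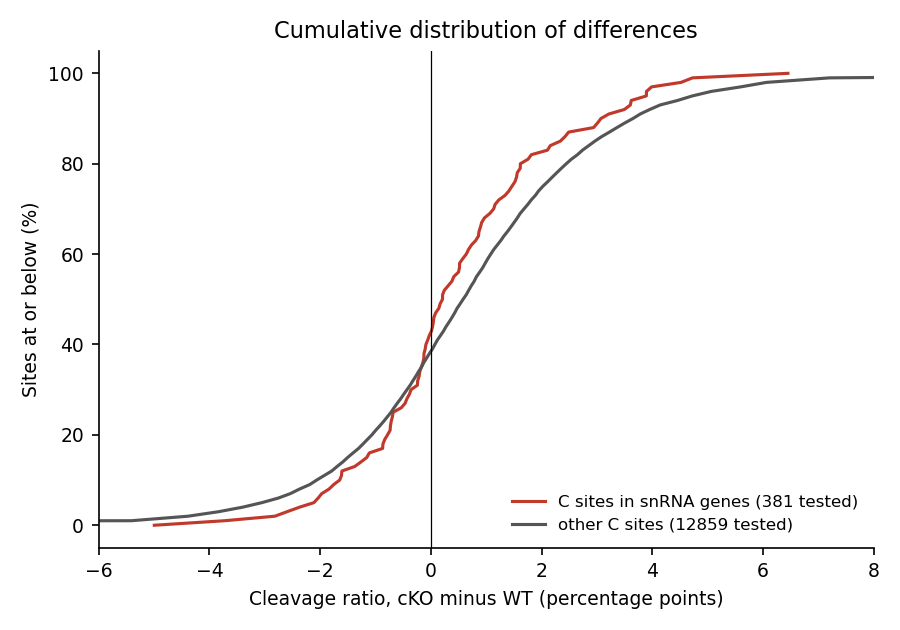
Cumulative share of tested C sites (percent) by difference of the mean cleavage ratio, cKO minus WT (percentage points), for 381 sites in snRNA genes and 12859 other sites. The curve of the snRNA sites crosses the middle at a median of 0.211 points and spans -4.99 to 6.45 points.

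U1 is the first snRNA to bind a new intron, and its C nucleotides 4, 8 and 9 lie in the stretch that pairs with the 5′ splice site. The 7 Gm genes of the U1 pattern on chromosome 12 had median coverages of 40556 to 61208 reads, and Gm23238 on chromosome 19 had 63980. Gm22317 (ENSMUSG00000096206) lies on the minus strand of chromosome 12 from 54738459 to 54738622. At its nucleotide 4 the ratio was 15.6, 16.9 and 15.8% in cKO libraries, against 15.6, 15.9, 16.2 and 17.0% in WT libraries, and the groups overlapped. At nucleotide 8 the mean was 17.4 ± 1.55% in cKO and 17.3 ± 0.315% in WT libraries (SD, n = 3 and 4). At nucleotide 9 it was 24.6 ± 0.458% and 23.2 ± 1.21% (unadjusted p = 0.0459, adjusted p = 0.575, quasi-binomial test).

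Nucleotide 13 of the U1 pattern, just past that stretch, had the smallest p-values of the snRNA sites. At Gm22317 (chromosome 12, position 54738610, 5085 to 9617 reads) the ratio was 16.8, 12.7 and 18.2% in cKO libraries, against 10.6, 12.4, 12.7 and 12.5% in WT libraries. The cKO libraries all lay above the WT libraries, but cKO replicate 2 and WT replicate 3 met at 12.7%. The difference was 3.90 points (unadjusted p = 0.00252, adjusted p = 0.518, quasi-binomial test). The site was named for its small p-value, so no further test of it is given. In the authors' deposited table its p-value was 0.136. The difference was 5.51 points without cKO replicate 2 and 2.73 points without cKO replicate 3 at the near copy Gm25679.

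The other genes of the U1 pattern pointed the same way at nucleotide 13. All 15 genes with this C had a higher mean in cKO, by 2.16 to 5.05 points, but they fall into 7 sets of near copies and are not independent. Of the 12 genes tested, 11 had an unadjusted p under 0.05 (quasi-binomial test), against 6.62% of all sites tested and 20.6% of those with a mean coverage of at least 1000 reads. These sites stand here for their small p-values, and near copies repeat the same reads, so the count is a description. At Gm22513 the ratio was 20.8, 18.1 and 22.2% in cKO libraries, against 14.6, 15, 18.1 and 15.5% in WT libraries, and cKO replicate 2 and WT replicate 3 met at 18.1%. It had the smallest p of all snRNA sites (unadjusted p = 0.00181, adjusted p = 0.518, quasi-binomial test). The authors' deposited p-value for it, from a test that is not named, was 0.0399. Gm23240, a gene of 121 nucleotides on chromosome 1 outside the pattern, had 21.8, 15.6 and 22.8% at its nucleotide 13 in cKO libraries, against 13.2, 14.9, 16.1 and 15.7% in WT libraries. There cKO replicate 2 lay within the WT range.

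Nucleotide 25 was named after its values were seen. At Gm22317 it had 7.33, 5.13 and 6.15% in cKO libraries, against 4.06, 4.80, 4.97 and 4.74% in WT libraries, and the groups did not overlap. The difference was 1.56 points (unadjusted p = 0.00273, adjusted p = 0.518, quasi-binomial test), and 0.998 points without cKO replicate 1. Over the tested snRNA sites 24 (6.30%) had all cKO libraries above all WT libraries, in 12 sets of near copies, and 5 (1.31%) had all below, in 4 sets. Over all tested sites these shares were 5.43% and 2.03%.

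Nucleotide 33, 2 positions past a C at nucleotide 31, did not share this direction. At nucleotide 31 of Gm22317 the mean was 8.07 ± 1.96% in cKO and 6.46 ± 0.264% in WT libraries (SD, n = 3 and 4), and all 15 genes of the pattern were higher in cKO. At nucleotide 33 it was 5.79 ± 0.428% and 5.77 ± 0.211%. At Gm22042, on the minus strand of chromosome 4 at position 51812615, nucleotide 33 had 10.3, 7.97 and 9.65% in cKO libraries, against 11.3, 10.6, 11.2 and 12.5% in WT libraries. All cKO libraries lay below all WT libraries, by 2.10 points in the means (unadjusted p = 0.00921, adjusted p = 0.575, quasi-binomial test). Of 13 genes with this C, 6 had a higher mean in cKO. Of the 11 tested, 6 had an unadjusted p under 0.05 (quasi-binomial test), all lower in cKO. The share lower was 2.02% of all sites tested and 10.4% of those with a mean coverage of at least 1000 reads. Near copies repeat the same reads, so this count too is a description.

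The named U1 genes were read far less towards their 5′ end. Rnu1b1 (ENSMUSG00000095580) lies on the minus strand of chromosome 3 from 96359953 to 96360117, and its mean coverage was 8.86 reads at nucleotide 0 and 27353 reads at nucleotide 123. Its highest ratio at 50 or more reads was at nucleotide 102, with 31.1, 28.9 and 29.3% in cKO libraries, against 25.5, 28.6, 27.1 and 28.3% in WT libraries. The groups did not overlap, and the difference of 2.44 points had an exact permutation p of 0.0571 (0.457 after adjustment over the 16 sites named for their level of ratio or coverage). The next C, nucleotide 101, had 22.9, 25.2 and 27.3% in cKO libraries, against 22.9, 26.7, 26.0 and 22.9% in WT libraries, and the groups overlapped. Gm22317 is 1 nucleotide shorter and has its later C positions 1 nucleotide earlier. Its nucleotide 101, which lines up with nucleotide 102 of Rnu1b1, had 4.15% in cKO and 4.11% in WT libraries.

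Nucleotide 0 of Gm22614, at the 5′ end of the U1 pattern, was also among the 5 sites of smallest p towards lower ratios. It had 94.3, 93.2 and 90.9% in cKO libraries, against 96.4, 97.3, 97.2 and 97.6% in WT libraries, and the groups did not overlap. It rests on 59 to 166 reads per library, and the difference of -4.31 points had an unadjusted p of 0.0237 (adjusted p = 0.575, quasi-binomial test). The authors' deposited p-value for it, from a test that is not named, was 0.0415. Gm22317, with 715 to 1702 reads there, had 99.1, 99.3 and 99.1% in cKO libraries, against 99.2, 99.7, 98.7 and 99.0% in WT libraries. There the groups overlapped.

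**Figure D3:**
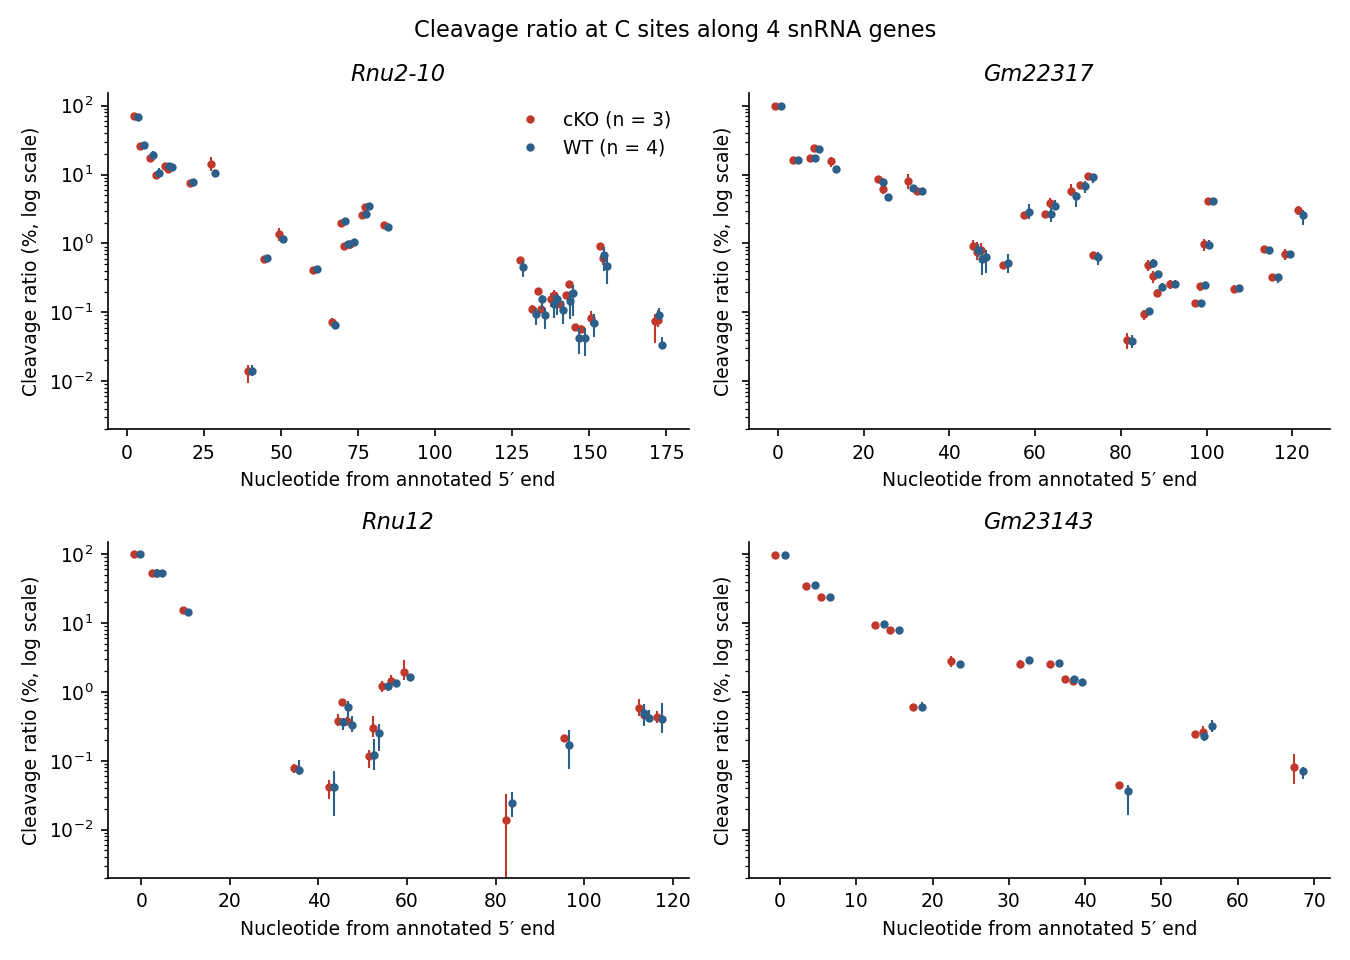
Cleavage ratio (percent, log scale) at the C sites of Rnu2-10, Gm22317, Rnu12 and Gm23143, by nucleotide from the annotated 5′ end. Points are means of 3 cKO libraries (red, drawn left) and 4 WT libraries (blue, drawn right), and lines span the lowest to the highest library, with a library at 0 drawn down to the axis. The genotypes follow each other along each RNA, and Rnu2-10 dips to 0.0143% in cKO and 0.0140% in WT libraries at nucleotide 40.

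U2 pairs with the branch site through a stretch that begins shortly after its nucleotide 28. Rnu2-10 had its highest ratio at nucleotide 3, with 73.5, 70.4 and 70.2% in cKO libraries, against 61.2, 68.9, 69.9 and 73.2% in WT libraries. WT replicate 1 was the lowest and the groups overlapped (exact permutation p = 0.343, 0.64 after adjustment). The ratio was 26.2 ± 0.751% in cKO and 26.9 ± 0.421% in WT libraries at nucleotide 5, and 17.6% and 19.2% at nucleotide 8. The 11 genes of the U2 pattern with a C at nucleotide 3 had mean ratios of 68.9 to 73.5% in 3 sets of near copies.

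The ratio of Rnu2-10 was higher at nucleotide 28 than at nucleotide 21, which had 7.53% in cKO and 7.77% in WT libraries. Nucleotide 28 was named after its values were seen. Rnu2-10 (chromosome 11, position 101658265) had 32835, 20277 and 30685 read starts there in cKO libraries, against 28660, 25235, 28012 and 25574 in WT libraries. The ratio was 18.2, 11.1 and 13.1% in cKO libraries, against 9.23, 10.5, 11.3 and 11.1% in WT libraries. cKO replicate 1 was the highest, WT replicate 1 the lowest, and cKO replicate 2 lay within the WT range. For cKO replicate 1 the exact (Clopper-Pearson) 95% interval was 18.0 to 18.4%, so counting error was far smaller than the spread between libraries. Such intervals cover counting error only, since reads without molecular identifiers are not independent molecules. The difference of 3.60 points had an unadjusted p of 0.0164 (adjusted p = 0.575, quasi-binomial test), and it was 1.57 points without cKO replicate 1. In the authors' deposited table its p-value was 0.226. All 12 genes of the U2 pattern with this C were higher in cKO, by 0.377 to 3.61 points, in 5 sets of near copies.

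Nucleotide 40 of Rnu2-10 had the lowest ratio of that gene by mean over the 7 libraries. It had 20, 35 and 48 read starts in cKO libraries, against 49, 34, 50 and 36 in WT libraries, over 212240 to 359411 reads. The ratio was 0.00942, 0.0162 and 0.0173% in cKO libraries, against 0.0136, 0.0120, 0.0171 and 0.0133% in WT libraries, and the groups overlapped. The ratio at nucleotide 45 was 0.60% in cKO and 0.62% in WT libraries. At nucleotide 61 it was 0.408 ± 0.0480% in cKO and 0.428 ± 0.0252% in WT libraries (SD, n = 3 and 4). In human U2 the cytidines at positions 40 and 61 carry a 2′-O-methyl group. That methylation was not measured here and its part in these ratios was not tested.

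Sites far from the 5′ end had low ratios that leaned one way. From nucleotide 131 on, 150 sites with at least 50 reads in each library, all of the U2 pattern and in 12 genes, had a higher mean in cKO in 143 cases. They fall into 86 sets of near copies, but a set joins only sites at the same nucleotide. The sites lie at nucleotides 131 to 173, where neighbouring C positions can share reads, so the sets are not independent. Of the 150 sites 17 had all cKO libraries above all WT libraries, 8 of them at nucleotide 134 and 5 at nucleotide 154. Among all C sites of any ratio with a mean coverage of at least 1000 reads, 59.7% of 12161 had a higher mean in cKO and 5.76% had all cKO libraries above all WT libraries. Among the 87065 C sites of any ratio with at least 50 reads in each library these shares were 52.1% and 4.04%. Neither set was matched in ratio or depth to the 150 sites, whose median coverage was 67958.5 reads. The median ratio of the 150 sites was 0.205, 0.158 and 0.192% in cKO libraries, against 0.0881, 0.150, 0.178 and 0.182% in WT libraries. WT replicate 1 was the lowest, and cKO replicate 2 lay within the WT range. The count was 136 of 150 without WT replicate 1 and 136 without cKO replicate 3, and 139 to 145 without each of the others. Most of them were under the mean ratio of 5% that the genotype test required. Nearer the 5′ end, sites with a higher mean in cKO were 0 of 15 at or before the first nucleotide and 72 of 160 over nucleotides 1 to 15. They were 89 of 144 over nucleotides 16 to 30, 115 of 205 over 31 to 60, 125 of 290 over 61 to 90 and 116 of 181 over 91 to 130.

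Gm25202, on the minus strand of the X chromosome from 14315401 to 14315591, had the largest difference of the tested snRNA sites. Its nucleotide 13 had 40.7, 36.6 and 40.6% in cKO libraries, against 30.3, 32.9, 34.3 and 33.9% in WT libraries, at 393 to 578 reads. The groups did not overlap and the difference was 6.45 points (unadjusted p = 0.00378, adjusted p = 0.518, quasi-binomial test). The authors' deposited p-value for this site, from a test that is not named, was 0.0196. The C at nucleotide 13 of Rnu2-10 had 13.3% in cKO and 13.4% in WT libraries over far deeper coverage.

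**Figure D4:**
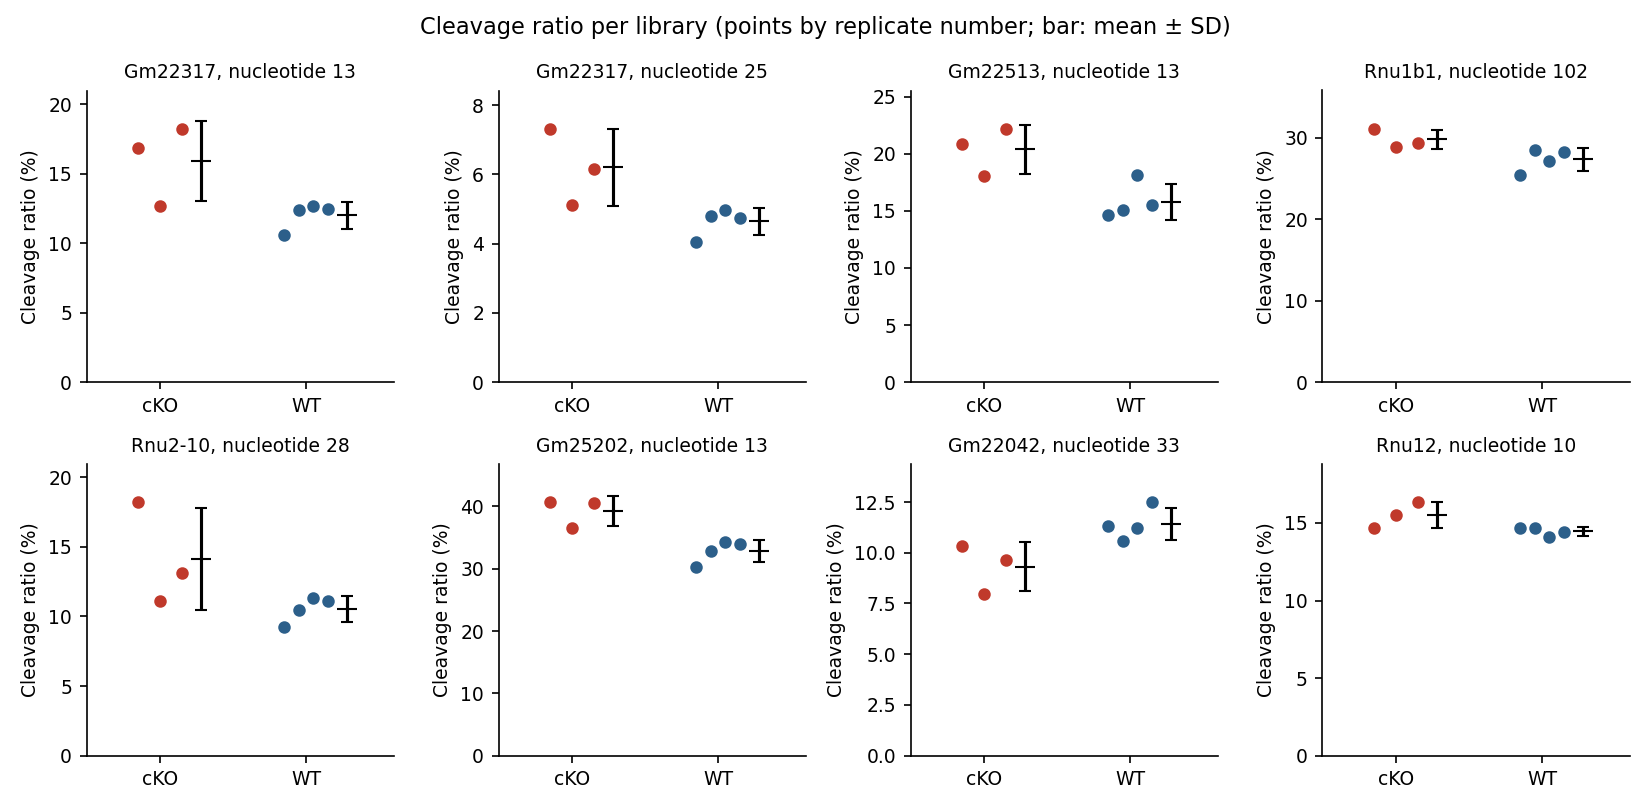
Cleavage ratio (percent) of 8 C sites in each library, with cKO left (red, 3 libraries) and WT right (blue, 4 libraries), in the order of the replicate numbers. Black bars show the mean ± SD. The groups do not overlap at nucleotides 13 and 25 of Gm22317, 102 of Rnu1b1, 13 of Gm25202, 33 of Gm22042 and 10 of Rnu12, though the nearest libraries meet at 12.7% for Gm22317 nucleotide 13 and at 14.7% for Rnu12.

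U12 was the single minor-intron RNA with a class name. Rnu12 (ENSMUSG00000065176) lies on the plus strand of chromosome 15 from 83149645 to 83149794 and held 19 sites. At nucleotide -1, the last C before the annotated gene, the ratio was 99.2, 99.1 and 99.3% in cKO libraries, against 99.6, 99.4, 99.3 and 100% in WT libraries. Nucleotide 3 had 49.5, 55.2 and 54.9% in cKO libraries, against 48.7, 49.6, 50.1 and 61.2% in WT libraries, with WT replicate 4 the highest. Both sites overlapped between the groups, with exact permutation p-values of 0.114 and 0.914 (0.61 and 0.91 after adjustment).

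Nucleotide 4 of Rnu12 averaged 52.6 ± 1.49% in cKO and 53.8 ± 2.16% in WT libraries (SD, n = 3 and 4). Nucleotide 10, named after its values were seen, had 14.7, 15.5 and 16.3% in cKO libraries, against 14.7, 14.7, 14.1 and 14.4% in WT libraries. The groups did not overlap, though cKO replicate 1 stood beside the highest WT libraries, and the difference was 1.04 points (unadjusted p = 0.0429, adjusted p = 0.575, quasi-binomial test). Without cKO replicate 3 it was 0.628 points. From nucleotide 35 on, the mean ratio was at most 1.79%, at nucleotide 60, where read starts numbered 154, 136 and 381 in cKO libraries and 265, 206, 185 and 139 in WT libraries. The lowest mean ratio was at nucleotide 83, where they numbered 3, 0 and 1 in cKO libraries and 2, 2, 3 and 2 in WT libraries, over 7074 to 12897 reads.

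The genes without a class name differed in where their high ratios lay. In Gm23143, a gene of 116 nucleotides on chromosome 4, the ratio was 98.1 ± 0.336% in cKO and 98.6 ± 0.324% in WT libraries at nucleotide 0. It was 34.9 ± 1.38% and 35.7 ± 1.86% at nucleotide 4, 23.7 ± 1.24% and 24.1 ± 2.00% at nucleotide 6, and 0.0445% and 0.0360% at nucleotide 45. All 15 tested sites of this set of 3 genes had a lower mean in cKO, as did 5116 of the 13240 sites tested over the whole table. The 15 are nucleotides 0, 4, 6, 13 and 15 in each gene, so they repeat the same positions and are not independent. Their median difference was -0.515 points, and 0 of them had an unadjusted p under 0.05 (quasi-binomial test). Their means overlapped, at 35.5, 35.8 and 35.1% in cKO libraries, against 36.3, 36.1, 35.4 and 36.8% in WT libraries.

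The pair of genes of 141 nucleotides was read less. At nucleotide 3 of Gm24407, with 51 to 125 reads, the ratio was 60.8, 55.6 and 64.9% in cKO libraries, against 68.0, 55.7, 62.3 and 66.0% in WT libraries. At nucleotide 8 it was only 1.98 ± 0.594% in cKO and 1.28 ± 0.282% in WT libraries, below the 10.9% and 10.6% of nucleotide 10. The groups overlapped at each of these.

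Gm22984, a gene of 121 nucleotides on chromosome 14 whose first listed C was nucleotide 21, had its high ratios in the middle of the annotated gene. Nucleotide 65 had 80.0, 82.9 and 82.4% in cKO libraries, against 83.5, 82.9, 81.6 and 80.8% in WT libraries. Nucleotide 70 had 54.6, 52.3 and 52.0% in cKO libraries, against 37.8, 45.3, 54.5 and 49.7% in WT libraries, a difference of 6.12 points between groups that overlapped. Without WT replicate 1 the difference was 3.11 points. The ratio was 0.22% in cKO and 0.16% in WT libraries at nucleotide 84.

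The most frequent gene length was 107 nucleotides, with 81 genes and 194 sites. These sites lay at nucleotides 4 to 42 and had a median coverage of 42.6 reads. Of the 47 tested, 24 were higher in cKO, 0 had an unadjusted p under 0.05, and the median difference was 0.0239 points. Gm25987, of this length, had the largest difference towards lower ratios of the tested snRNA sites. Its nucleotide 25 had 0, 3.51 and 6.0% in cKO libraries, against 3.85, 7.78, 15.2 and 5.88% in WT libraries, at 51 to 100 reads, and the groups overlapped. The 0 in cKO replicate 1 allows a ratio of up to 5.17%.

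Coverage, as a measure of how much of an snRNA was read, was compared at the most deeply read site of each class after scaling libraries by the median of ratios. Fewer cells of a type and less RNA per cell cannot be told apart in such bulk samples. Scaled coverage of Rnu1b1 was 30347 ± 3463 in cKO and 25086 ± 4609 in WT libraries (SD, n = 3 and 4), a log2 ratio of 0.29 (exact permutation p = 0.2, 0.4 after adjustment over 4 classes). Rnu12 had 12978 ± 1327 in cKO and 10809 ± 1354 in WT libraries, a log2 ratio of 0.27 (exact permutation p = 0.171, 0.4 after adjustment). Rnu2-10 had 342876 ± 8854 in cKO and 343863 ± 15916 in WT libraries, with an exact permutation p of 1. With 35 splits no p under 0.0286 was possible. With libraries scaled by total coverage instead, the log2 ratios were 0.083 for Rnu1b1, 0.061 for Rnu12 and -0.21 for Rnu2-10.

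RNA-seq did not read the snRNAs themselves. Of the 161 genes 4 were in the count table, 2 had any read, and the 12 libraries held 10 reads for them in all. Genes for proteins that bind, make and modify snRNAs were taken in 3 lists. The list of modifying enzymes also holds Mettl8, the gene removed in this study. Of the 131 genes in these lists, Mettl8 included, 119 had enough reads to be tested. Of these, 0 passed an adjusted p of 0.05 in edgeR's quasi-likelihood test, beside 0% of 13105 genes. At an unadjusted p under 0.05, 5 were higher in cKO, Mettl8 among them, and 2 lower, against 2.86% and 3.28% of all genes. DESeq2 called 1 of them, Mettl8, which stands on the list of RNA-modifying enzymes. The number that DESeq2 called over all genes is not given here. The median log2 fold change was 0.03 over the 3 lists and -0.001 over all genes.

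Among the 53 tested snRNP proteins 31 were higher in value in cKO and 22 lower. An unadjusted p under 0.05 (edgeR) was reached by 4, all higher in cKO, against 2.86% of all genes. Prpf8, the protein at the heart of the spliceosome, had 214.3 to 256.8 CPM with a median of 230.3 in cKO samples, against 188.0 to 228.1 CPM with a median of 217.1 in WT samples (log2 fold change 0.14 ± 0.06 SE, adjusted p = 0.803, edgeR). Snrnp200, the helicase that unwinds U4 from U6, had 149.5 to 226.0 CPM in cKO samples, against 150.6 to 196.6 CPM in WT samples (log2 fold change 0.17 ± 0.06 SE, adjusted p = 0.803, edgeR). The groups overlapped for both. Sf3b2, a protein of the U2 particle, had a log2 fold change of 0.17 and Sart1, which helps to join the tri-snRNP to the spliceosome, one of 0.39. Sf3a3, also of the U2 particle, had one of -0.21, Snrpd2, an Sm ring protein, one of -0.11 and Snrnp27 one of -0.07, all with an adjusted p above 0.8 in edgeR.

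Among the 47 tested genes for snRNA transcription and processing, 32 were higher in value in cKO and 15 lower. An unadjusted p under 0.05 (edgeR) was reached by 2 genes, both lower in cKO, against 3.28% of all genes. Snapc5, a subunit of the complex that binds snRNA promoters, had 29.6 to 48.7 CPM with a median of 31.6 in cKO samples, against 36.9 to 54.8 CPM with a median of 43.2 in WT samples (log2 fold change -0.20 ± 0.08 SE, adjusted p = 0.803, edgeR). The library names give 2 sets, within which cKO differed from WT by -0.003 (set 1) and -0.35 (set 2) on the log2 scale. Ints6, of the Integrator complex that cuts the 3′ end of snRNAs, had a log2 fold change of -0.22, and Gemin8, of the SMN complex that loads Sm proteins, one of -0.13. Snapc1 had 0.17, Ints8 0.16 and Zfp143, a factor at snRNA promoters, 0.10 on the same scale.

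Of the 19 modification enzymes, Mettl8 included, 10 were higher and 9 lower in value, with a median log2 fold change of 0.001. Mettl8 had a log2 fold change of 0.67 ± 0.12 SE (adjusted p = 0.265, edgeR), with all 6 cKO samples above all 6 WT samples, and 0.56 in set 1 and 0.75 in set 2. Pcif1, which methylates capped mRNA and snRNA ends, had 0.20, and Mettl16, which methylates U6, had 0.08. Pus7, a pseudouridine synthase, had -0.18, Gar1, of the H/ACA particles, -0.26, and Nop58, of the C/D particles that guide 2′-O-methylation, -0.08. None of these 5 had an unadjusted p under 0.05.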

How the data were processed

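The members and lists were chosen with earlier results of these data known, and the pattern groups, near-copy sets and 3 sites marked in the text after seeing the values. The submitters' processing notes name bcl2fastq 2.17.1.14, Trimmomatic 0.32, STAR 2.5.2a and builds GRCm38 and GRCm38.p6. Per the file headers, a C site stands in the deposited HAC-seq table where every WT library has over 1 read start directly 3′ of it. The authors give the read starts as a coverage signal, the read count at the site, the quotient of both as a fraction, and a p-value from a test that is not named. Of 135582 entries 118890 remained after dropping repeats, and 0 sample columns were left out. The deposited RNA-seq table holds raw counts per gene, 11830839 to 18863781 per library.

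Sites entered the quasi-binomial test at 50 or more reads in each library and a mean ratio of 0.05 or more. Dispersions were moderated with limma 3.58.1 in R 4.3.3, and p-values were adjusted over all sites. Single sites named for their level had a two-sided exact permutation test of the difference of means; those named for a small p or a large difference had none. Named sites were, per class, the 3 of highest ratio and 1 of highest coverage, then the 5 smallest p in each direction and the 5 largest differences. Genes were tested with edgeR 4.0.16 with library set as covariate, DESeq2 1.42.0 being an alternative, and the 3 of smallest p in each direction were named per list. CPM are TMM-scaled counts. Both models were tested on simulated data. Alternatives changed the coverage and ratio minimum, the test, the scaling, the libraries and the replicate block.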

Additional observations from a re-analysis of the deposited data

Results flagged for a closer look

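In each of these the highest or lowest of 4 WT libraries, or of 6 RNA-seq samples of 1 genotype, stood far from the others in its group, which chance gives in about 1 of 20 groups. WT replicate 4 had 61.2% at nucleotide 3 of Rnu12, 0.102% at its nucleotide 35 and a mean of 58.0% over the 4 tested Rnu12 sites. WT replicate 1 had 10.6% at nucleotide 13 of Gm25679, a near copy of Gm22317. In RNA-seq, Sf3a3 had 69.2 CPM in cKO replicate 6 and 133.9 CPM in WT replicate 5, and Snrnp27 had 224.7 CPM in WT replicate 3.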

How the results depend on the processing

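Unadjusted counts moved most. They count snRNA signals, and the unadjusted shares over all sites tested in the same fits are not given here. At a mean ratio of at least 0.01 the counts were 98 higher and 35 lower of 660 signals, at 0.10 they were 26 and 5, with limma on arcsine values 4 and 3, and with the authors' p-values 5 and 2. Leaving out each library gave 32 to 60 higher and 4 to 34 lower (34 without WT replicate 3). It gave 0 to 7 called at an adjusted p, the 7 without cKO replicate 2. Over the whole table that fit called 16 sites higher and 6 lower. The cause of these shifts was not tested. The mean difference stayed positive, at 0.225 to 0.775 points, when libraries were left out, and was 0.419 points with 1 site per set of near copies, an alternative added after seeing the data. In RNA-seq 1 gene of the 3 lists, Mettl8, was called with DESeq2, without a filter on low counts and without WT replicate 6. The leave-one-out counts over the lists ran from 0 to 1. The numbers called over all genes in these fits are not given here.

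Replicate numbers were not taken to pair the libraries, since not every pair of an assay had a correlation over 0.1. Same-numbered HAC-seq libraries had correlations of deviations of -0.016, -0.023 and 0.0394, and -0.21, 0.0911 and 0.112 over the snRNA sites alone. Of the 6 RNA-seq pairs 5 had 0.373 to 0.621 and 1 had -0.359. The latter was replicate 3, whose cKO and WT libraries lie in different library sets, while the other pairs share a set. Library set was not removed from these values, so they cannot tell pairing from library set. With the replicate block 58 signals were higher and 8 lower at an unadjusted p, 0 were called, and the mean difference was 0.625 points. The block turned the sign at nucleotide 101 of Rnu1b2 (-0.0672 points) and for the log2 coverage of U2 (0.0105) and of Gm24950 (0.0105), all small values.

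Other values changed sign when libraries were left out. They were nucleotide 0 of Gm23804 (-0.314 to 0.0355 points), nucleotides 35 (-0.00235 to 0.0135) and 3 (-0.429 to 3.72) of Rnu12, nucleotide 101 of Rnu1b2 (-0.589 to 1.64), the mean of the Rnu12 sites (-0.381 to 1.05, against 0.0686 with every library), and the log2 coverage of U2 (-0.0365 to 0.0182) and Gm24950 (-0.0365 to 0.0182). Sites near 50 reads carry wide counting intervals.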
